A study of Mus musculus with 16 samples.

Results

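Regions of accessible chromatin were compared between wild type (WT) mouse embryonic stem cell (ESC) derivatives treated with CHIR99021 (CHIR), an inhibitor of the kinase GSK3 that activates Wnt signalling, and untreated WT cells on day 3 of differentiation. Gained regions were those that both CHIR libraries and neither untreated library held among their 50000 strongest peak intervals, and lost regions were the reverse. Of 80565 consensus regions over the series, 8849 (11.0%) were gained and 7270 (9.02%) were lost, 16119 in all. The series profiled ESCs on the way to anterior neural progenitor cells with omni-ATAC, an assay in which a transposase cuts accessible DNA, in 16 libraries that form 8 groups of 2. The CHIR group holds lines WT7 (replicate 1) and WT34 (replicate 2), which received 3 µM CHIR for the 24 h that ended on day 3. The untreated WT group holds lines WT70 (replicate 1) and WT72 (replicate 2), sampled on the same day. All 4 lines are wild type for Tet1 in a B6129S6F1 background, the labels give the strain with the allele name Tet1<tm1Koh>, and all cells received basic FGF from the start of differentiation. The other 12 libraries were Tet1 catalytic mutant (MUT), Tet1 knockout (KO) and WT cells on day 2, MUT and KO cells on day 3, and KO cells given the Wnt inhibitor XAV939 (XAV) on day 3.

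Line and treatment changed together between the groups and cannot be told apart. WT7 is the line from which the study made both MUT clones, so the MUT libraries of day 3 are untreated relatives of CHIR replicate 1. The study also made mock-transfected WT clones from WT7. Whether WT70 and WT72 are among these clones could not be established, so their relation to WT7 and WT34 is unknown. WT70 and WT72 on day 2 are the same lines as the untreated group a day earlier. The labels list no group that received the vehicle alone. Each group holds 1 library from each of 2 lines, and with 2 against 2 an exact two-sided permutation test allows no p under 0.333, so the counts of gained and lost regions carry no p. The libraries are bulk, and fewer cells with an open region cannot be told apart from lower accessibility per cell.

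In the canonical Wnt pathway a complex that includes AXIN2 and GSK3 marks β-catenin for destruction. When GSK3 is inhibited, β-catenin accumulates and joins DNA-bound factors of the TCF/LEF family (LEF1, TCF7, TCF7L1, TCF7L2), which recognise a short sequence around CTTTGAT. In the epiblast of the gastrulating mouse embryo Wnt signalling induces the primitive streak, from which mesoderm and definitive endoderm arise, and it has to stay low for anterior neural tissue to form.

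The sequences of 8 regions are shown as examples, chosen by their words and test statistics. They are windows of 201 bp around the summit, plus strand of mm10, read from RefSeq GRCm38.p6, and capitals mark the words named for each. The first 5 are gained regions that hold a TCF/LEF word, CTTTGATG or CTTTGATC on either strand, which 2.35% of all consensus regions hold and 9.83% of gained regions. They are the gained regions with the largest test statistic among holders near Wnt targets (Ccnd1, a G1 cyclin), primitive streak genes (Fgf3, an FGF ligand) and mesoderm genes (Meox1, a somite homeobox factor), and the 2 largest of all genes (Polr2m and Selp).
Ccnd1 gained region, intergenic, 96.7 kb upstream of the start site (chr7:145036507-145036707): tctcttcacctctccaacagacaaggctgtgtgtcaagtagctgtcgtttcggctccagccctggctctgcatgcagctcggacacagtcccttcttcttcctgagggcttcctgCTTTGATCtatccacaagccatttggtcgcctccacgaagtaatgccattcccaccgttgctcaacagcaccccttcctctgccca
Fgf3 gained region, intergenic, 34.5 kb upstream (chr7:144803453-144803653): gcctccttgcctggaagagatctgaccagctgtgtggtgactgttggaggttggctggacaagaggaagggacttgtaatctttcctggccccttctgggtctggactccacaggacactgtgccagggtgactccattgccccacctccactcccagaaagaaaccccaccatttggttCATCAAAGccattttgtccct
Meox1 gained region, intron, 11.7 kb downstream (chr11:101882600-101882800): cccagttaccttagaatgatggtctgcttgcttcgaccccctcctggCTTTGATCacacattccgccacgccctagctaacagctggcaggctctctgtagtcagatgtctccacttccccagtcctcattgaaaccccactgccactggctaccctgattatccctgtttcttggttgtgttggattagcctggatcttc
Polr2m gained region, intergenic, 78.2 kb downstream (chr9:71406651-71406851): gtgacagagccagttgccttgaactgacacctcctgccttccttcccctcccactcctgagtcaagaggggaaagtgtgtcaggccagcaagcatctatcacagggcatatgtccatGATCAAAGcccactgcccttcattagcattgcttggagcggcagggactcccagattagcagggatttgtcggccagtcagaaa
Selp gained region, intron, 8.57 kb downstream (chr1:164123734-164123934): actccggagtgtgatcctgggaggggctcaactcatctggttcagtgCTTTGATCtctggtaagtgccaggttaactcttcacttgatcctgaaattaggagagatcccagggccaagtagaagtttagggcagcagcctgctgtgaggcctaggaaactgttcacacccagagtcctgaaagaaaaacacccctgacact

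The Ccnd1 region had a fold enrichment, the ratio of signal at the summit to local background, of 10.4 and 11.4 in CHIR cells and no deposited peak in either untreated WT library. Fold enrichment with CHIR was 6.04 and 6.20 at the Fgf3 region and 4.16 and 4.41 at the Meox1 region. It was 13.5 and 14.6 at the Polr2m region and 13.4 and 14.5 at the Selp region. None of these 5 regions had a peak in untreated WT cells or was open in any of the other 12 libraries. The remaining sequences are the lost regions with the largest test statistic near anterior neuroectoderm genes (Pax6, an eye and forebrain factor), near formative pluripotency genes (Etv5, an ETS factor downstream of FGF) and of all genes (Ptprc). In the Pax6 region the capitals mark the overlapping words GGAATGT (TEAD) and TGACTCA (AP-1). In the Ptprc region they mark a SOX word (ACAATGG, here as CCATTGT) and a ZIC word (CCTGCTGNG, here as CTCAGCAGG), and the Etv5 region held no word of the 20 families searched.
Pax6 lost region, within the gene, 13.0 kb downstream of its nearest start (chr2:105691306-105691506): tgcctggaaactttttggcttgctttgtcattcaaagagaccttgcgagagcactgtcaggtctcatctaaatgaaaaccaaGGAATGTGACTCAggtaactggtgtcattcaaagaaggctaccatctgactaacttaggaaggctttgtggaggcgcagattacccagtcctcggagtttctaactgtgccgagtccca
Etv5 lost region, intron, 20.2 kb downstream (chr16:22416214-22416414): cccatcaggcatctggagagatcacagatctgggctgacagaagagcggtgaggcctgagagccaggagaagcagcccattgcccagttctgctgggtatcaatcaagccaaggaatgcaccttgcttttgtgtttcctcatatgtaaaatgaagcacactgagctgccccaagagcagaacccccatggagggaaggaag
Ptprc lost region, intron, 20.9 kb downstream (chr1:138154250-138154450): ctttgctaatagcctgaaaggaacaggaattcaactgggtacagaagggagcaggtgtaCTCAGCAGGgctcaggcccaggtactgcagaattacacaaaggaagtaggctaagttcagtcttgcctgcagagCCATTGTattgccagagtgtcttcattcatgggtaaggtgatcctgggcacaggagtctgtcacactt

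Neither CHIR library listed a peak at these 3 regions. In untreated WT cells the fold enrichment was 5.38 and 4.39 at the Pax6 region, 7.06 and 5.46 at the Etv5 region and 14.9 and 12.2 at the Ptprc region. The Ptprc region was open in all of the other 12 libraries, the Etv5 region in 9 and the Pax6 region in 8.

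The deposited lists were of like length in both groups. They held 182706 and 190903 peaks in CHIR cells and 182414 and 170543 in untreated WT cells, within the range of 161449 to 276451 over all 16 libraries, and read depth is unknown. Only the 50000 strongest intervals of a library counted as open, and the weakest of them had a −log10 p of 10.9 and 11.1 in CHIR cells and 12.6 and 9.75 in untreated WT cells. A region that was not open could therefore still hold a weaker peak. Promoters of epiblast markers (Sox2, Nanog, Utf1, Otx2, Dnmt3b) were open in all 4 libraries, and that of Pou5f1 only in untreated replicate 1. Of 17 extraembryonic endoderm promoters 11 and 10 were open in CHIR cells and 11 and 10 in untreated WT cells. Sox7, Sox17, Gata4, Dab2, Lamb1 and Sparc were among those open in all 4 libraries. Afp, Apoa1, Hnf4a and Amn were among those open in none of the 16 libraries. The count was 9 and 9 with CHIR and 9 and 9 without for the 14 trophoblast promoters. For the 16 fibroblast promoters it was 10 and 10 with CHIR and 9 and 10 without. Among these, Col1a2, Col5a1, Fn1, Vim and Dcn were open in all 4 libraries, and Col1a1, Col3a1, Postn and Lum in none of the 16.

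Most gained regions had a weaker peak in at least 1 untreated library, and most lost regions a weaker peak in at least 1 CHIR library. In CHIR cells the gained regions had median fold enrichments of 7.15 and 7.48, against 3.91 and 3.56 for those listed in untreated WT cells, and 4073 of them (46.0%) had no deposited peak in either untreated library. Lost regions had medians of 3.82 and 4.11 where listed in CHIR cells, against 7.52 and 6.33 in untreated WT cells, and 910 (12.5%) had no peak in either CHIR library. Both CHIR libraries still had a peak at 5041 of the lost regions, and both untreated libraries at 3260 of the gained ones. A library on the closed side missed its limit by at most 2 units of −log10 p at 1130 gained regions (12.8%) and 1883 lost regions (25.9%). Of the remaining consensus regions, 32803 were open in all 4 libraries, 11139 in none and 20504 in another combination. Exactly 1 CHIR library and no untreated one was open at 2591 regions, and exactly 1 untreated and no CHIR library at 7691. Without untreated replicate 2 the number of lost regions was 11400.

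A fit over fold enrichment in all 16 libraries (limma) gave a graded measure of the same contrast. It called 7387 regions (9.17%) higher and 10379 (12.9%) lower with CHIR at an adjusted p under 0.05, and the median log2 difference over all regions was −0.02. Because the fit reads the libraries that defined gained and lost regions, it is no independent check of them. It called 6088 gained regions (68.8%) higher and 4306 lost regions (59.2%) lower, none in the opposite direction. Medians of the log2 difference were 2.28 for gained and −0.91 for lost regions. Libraries without a peak were set to 1, the level of background, and 4401 of the higher regions lacked a peak in both untreated libraries, as 4017 of the lower regions did in both CHIR libraries. Of all calls 41.6% were higher in the whole fit, 43.2% when unlisted regions were set to the lowest listed value, and 24.2% (1089 higher and 3411 lower) when only the 62275 regions with a peak in all 4 libraries were tested, a filter that itself removes regions present in 1 group alone. With the other 12 libraries left out of the fit, 6292 were higher and 5838 lower. Below, a log2 difference with its standard error (SE) is given only where all 4 libraries had a peak. Elsewhere the adjusted p stands alone, since libraries set to 1 share a value and so show little spread. Those adjusted p come from the same small spread, so they can be too small and do not rank regions by strength. With each spread raised to at least the median of regions listed in all 16 libraries, 7293 regions were higher and 10165 lower.

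Libraries that the definition did not use also separated at these regions. Gained regions were open in 26.2% and 18.8% of cases in KO cells on day 3 (22.5% ± 5.24, SD, n = 2), against 7.23% ± 0.824 (SD, n = 10) in the other libraries, whose range was 6.32% to 9.02%. Lost regions were open in 54.2% and 53.0% in KO cells on day 3 (53.6% ± 0.846, SD, n = 2), against 71.2% ± 3.82 (SD, n = 10), with a range of 63.1% to 77.6%. KO day 3 libraries lay above all 10 others at gained regions and below all 10 at lost ones, and both differences had a two-sided exact permutation p of 0.0152 (adjusted p = 0.0152 over 4 such tests), the smallest that 2 against 10 can give. The libraries share lines and days, so the p measures the spread over these libraries only. Given XAV, the same KO lines had 7.66% and 7.57% of gained regions and 70.9% and 70.5% of lost regions open. On day 2 these lines had 7.57% and 6.32% of gained regions open. Their day 2 shares of lost regions, 68.7% and 63.1%, were the lowest of the 10 other libraries. Over all consensus regions the KO libraries of day 3 were open at 63.2% and 61.4%, and all 16 libraries at 61.4% to 65.1%. With every interval at a −log10 q of at least 2 counted as open, the lead of KO cells at gained regions was 9.46 points and missed the threshold (exact permutation adjusted p = 0.121), and with 1 KO library left out no p under 0.0909 is possible.

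**Figure D1:**
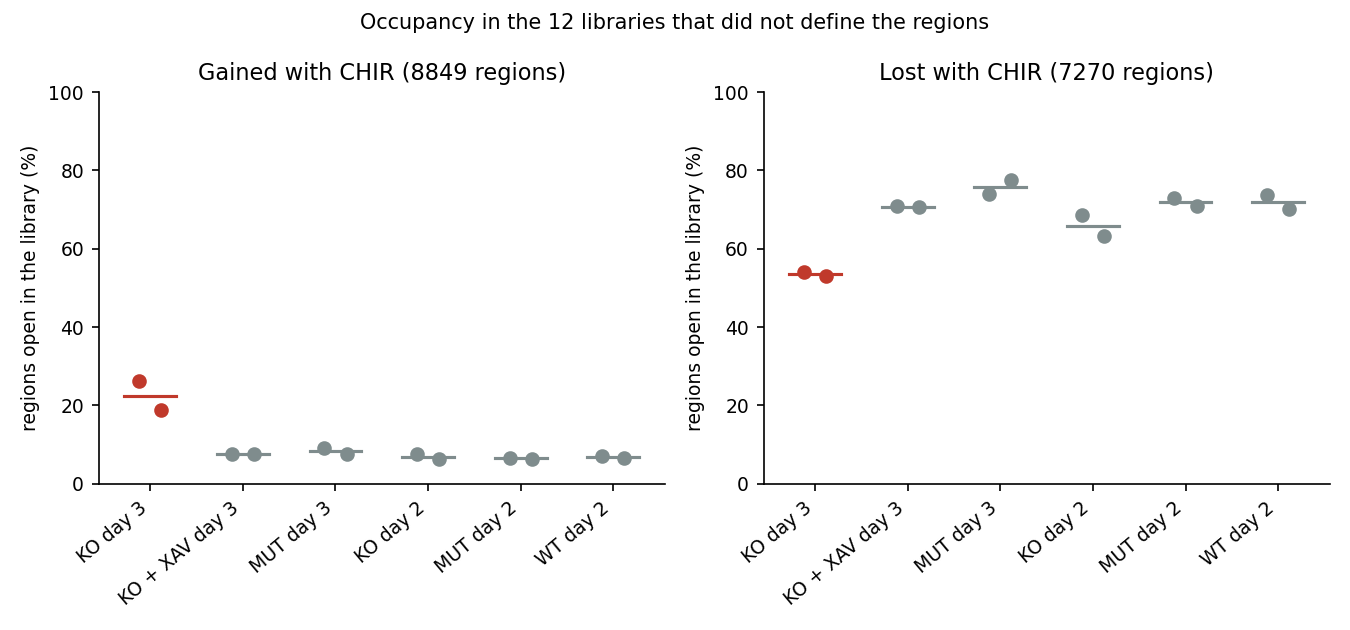
Percent of gained (left) and lost (right) regions open in each of the 12 libraries that did not define them, 1 point per library and groups along the axis. KO cells on day 3 sit at 26.2% and 18.8% of gained regions and 54.2% and 53.0% of lost regions, outside the range of the other 10 libraries.

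MUT cells on day 3, the untreated derivatives of the line of CHIR replicate 1, had few gained regions and most lost regions open. The 2 libraries were open at 9.02% and 7.59% of gained and 73.9% and 77.6% of lost regions. Over all consensus regions they were open at 63.3% and 64.1%, and at regions open in all 4 libraries at 96.6% and 97.4%. Of the gained regions 7703 (87.0%) were open in neither MUT library of day 3 and 324 (3.66%) in both. Of the lost regions 4671 (64.3%) were open in both and 926 (12.7%) in neither. No lost region without a CHIR peak also lacked a peak in both MUT libraries, which listed a peak at 99.3% and 99.8% of all lost regions. Of the 910 lost regions without a CHIR peak, 486 were open in both MUT libraries. Of the 4073 gained regions without an untreated WT peak, 3197 also had no peak in either MUT library. Of the gained regions 5474 (61.9%) were open in none of the other 12 libraries and 28 in all 12. Lost regions were open in all 12 others in 1676 cases (23.1%) and in none in 163 (2.24%). On day 2 the lines of the untreated group, WT70 and WT72, had 73.8% and 70.2% of the lost regions and 7.00% and 6.55% of the gained regions open. KO cells on day 3 shared 1267 gained regions in both libraries (14.3%), and 2358 lost regions (32.4%) were open in neither.

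The regions that the authors called as opened or closed in KO against WT cells on day 3 were then read in the CHIR libraries. Of the 1077 open-in-KO regions 69.5% and 65.9% were open with CHIR, against 4.46% to 15.8% in the 10 libraries outside the KO and WT groups of day 3. Of the 920 close-in-KO regions 30.7% were open in each CHIR library, against 57.8% to 76.3%. Differences of the means were 60.1 and −37.4 percentage points, each with a two-sided exact permutation p of 0.0152, the smallest possible (adjusted p = 0.0152). These lists were chosen by the authors on KO and WT libraries of day 3, which were left out. Here too the libraries share lines and days, so the p measures the spread over these libraries only.

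Wnt targets and feedback genes had many gained regions. Of the 21 genes of this list, 15 had a gained region and 10 a lost one, against 25.4% and 24.6% of the 17461 protein-coding genes with a region within 100 kb of a start site. Genes of the developmental lists had more regions each than genes overall (8.52 here against 3.96), so shares of regions are given beside them. Of the 179 regions 24.6% were gained and 10.6% lost, against 9.94% and 8.32% over all genes. Such shares depend on where regions lie. Promoter-proximal regions were gained in 5.69% and lost in 5.47% of cases, intronic ones in 16% and 11.7% and intergenic ones in 13.9% and 11.5%. Lists and all genes were not matched for this mix, here or below. The fit called 25 of these regions higher (14.0%) and 22 lower (12.3%), against 8.15% and 11.2% over all genes, and their median log2 difference was 0.06, against −0.01 over all genes.

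Axin2, a feedback inhibitor of the pathway, had 7 gained and 3 lost of 18 regions. An intergenic region 22.5 kb upstream (chr11:108897643-108897972) with a TCF/LEF word had a fold enrichment of 9.04 and 9.33 in CHIR cells, against no peak and 2.59 in untreated WT cells (adjusted p = 0.000139). Both CHIR libraries stood well above the untreated ones there, and the MUT libraries of day 3 had 2.89 and 3.24. At a second gained region, 13.4 kb upstream, the values were 5.08 and 6.62 with CHIR and no peak in either untreated library (adjusted p = 2.39e-09). The gene also lost accessibility inside its body: an intronic region 5.79 kb downstream (chr11:108928803-108929132) had 3.00 and 2.77 with CHIR and 6.18 and 6.28 without (log2 difference −0.99 ± 0.18 SE, adjusted p = 0.00173), and it was open in all other 12 libraries. The start site itself, 9 bp away, had 5.10 and 6.45 with CHIR and 6.14 and 6.34 without and was not called (log2 difference −0.10 ± 0.21 SE, adjusted p = 0.820).

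Lef1, which encodes a TCF/LEF factor, had 8 gained and 4 lost of 22 regions. Its strongest gained region, 75.5 kb upstream (chr3:131034819-131035132), had 14.0 and 14.7 in CHIR cells, against no peak and 3.67 in untreated WT cells (adjusted p = 0.00736). KO cells on day 3 had 9.34 and 5.04 at the same place and were open there. An intronic region 43.8 kb downstream (chr3:131156396-131156746) went the other way, with 3.81 and 4.16 with CHIR and 12.5 and 10.4 without (log2 difference −1.41 ± 0.18 SE, adjusted p = 0.000109). Less than 1 kb from that lost region lay a gained one (43.0 kb downstream) that holds a TCF/LEF word, with 6.25 and 8.24 against 2.81 and 3.93, which missed the threshold (log2 difference 1.29 ± 0.63 SE, adjusted p = 0.186). Upstream, 8.07 kb from the start, CHIR cells had 2.20 and 3.20 and untreated WT cells 7.88 and 8.30 (log2 difference −1.40 ± 0.19 SE, adjusted p = 0.000125).

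Sp5, a zinc finger factor induced by Wnt, had 5 gained and no lost of 9 regions. A region 31.0 kb upstream (chr2:70443723-70444042) with a TCF/LEF word had 7.52 and 7.10 with CHIR and no peak without (adjusted p = 0.000201), and 7.95 and 4.68 in KO cells on day 3, where it was also open. Near the start, 359 bp upstream, the values were 3.20 and 3.21 with CHIR and no peak in untreated WT cells (adjusted p = 0.00230). A further region 1.81 kb into the gene was lower with CHIR, with no peak against 3.08 and 3.73 (adjusted p = 0.0240). Sp8, a relative of Sp5, had 2 gained and 2 lost regions. Other targets with gained regions were Nkd1 (4 gained, none lost), a cytoplasmic inhibitor, and Ccnd1 (2 gained and 2 lost).

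**Figure D2:**
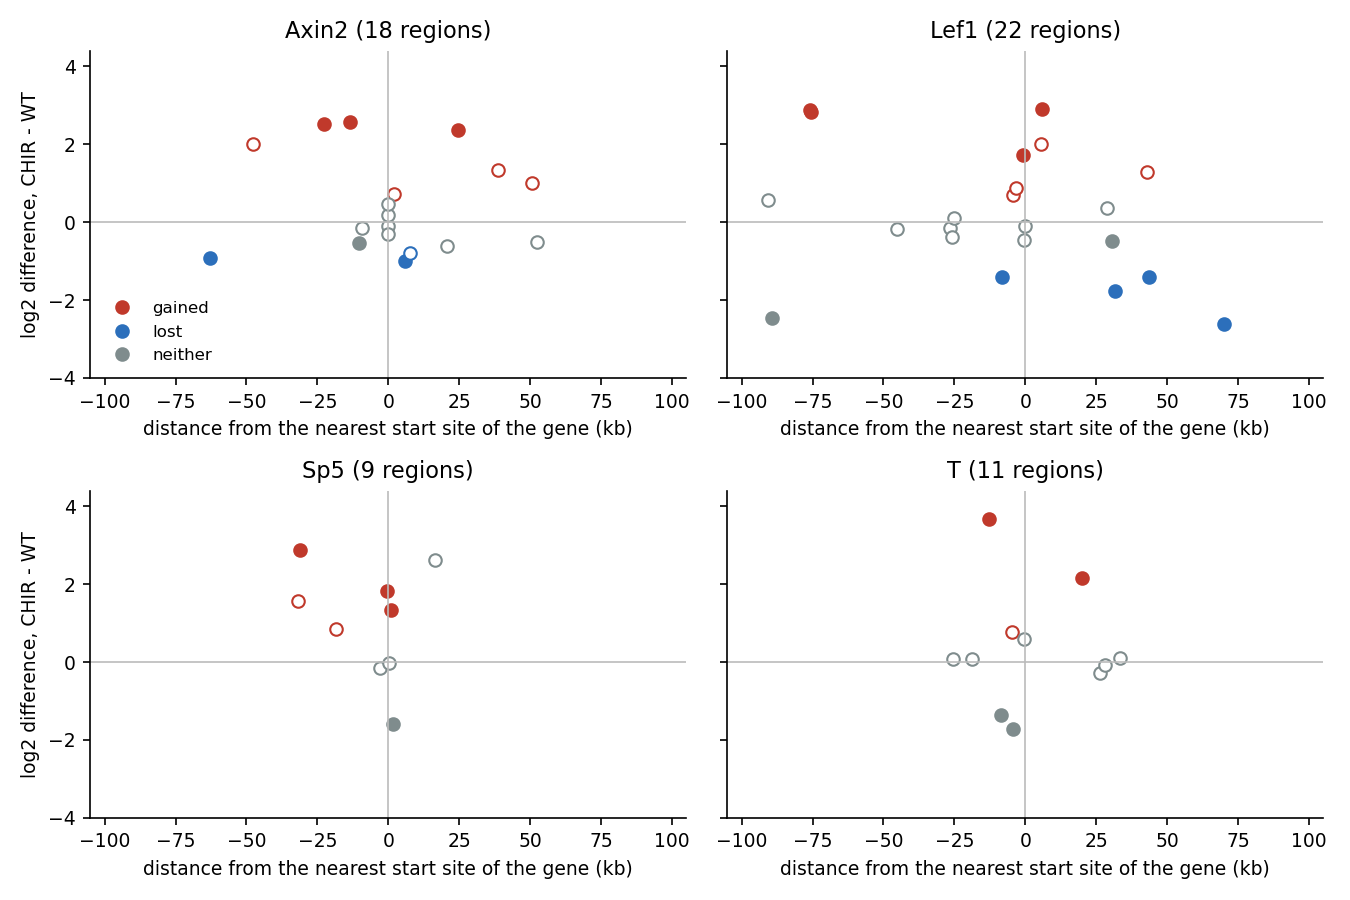
Log2 difference in fold enrichment (CHIR minus untreated WT) of each consensus region at Axin2, Lef1, Sp5 and T against its distance from the start site in kb, with filled points for an adjusted p under 0.05. Axin2 (18 regions), Lef1 (22), Sp5 (9) and T (11) each held regions on both sides of 0.

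Ligands, receptors and transducers of the pathway varied among themselves. Of the 41 genes 27 had a gained and 21 a lost region, with 19.3% of 337 regions gained and 10.7% lost. The fit called 56 regions higher (16.6%) and 46 lower (13.6%), against 8.15% and 11.2% over all genes. Tcf7l2, a TCF factor, had 7 gained and 2 lost of 22 regions. Of these, the region 52.3 kb from its nearest start, promoter-proximal to another transcript of the gene, had 9.82 and 11.2 with CHIR and no peak without (adjusted p = 2.84e-09). An exonic region 10.6 kb into the gene was lower, with 3.22 and 4.11 against 9.25 and 6.02 (log2 difference −0.95 ± 0.19 SE, adjusted p = 0.00307). Among the Frizzled receptors, Fzd10 had 6 gained and 1 lost region, and Fzd7 had 4 gained and 5 lost. The Fzd10 region 58.5 kb upstream, with a TCF/LEF word, had 8.11 and 9.24 with CHIR and no peak in untreated WT, MUT or KO cells of day 3 (adjusted p = 0.00117). At Fzd7, a region 33.4 kb upstream had 2.24 and no peak with CHIR, against 9.62 and 8.56 without (adjusted p = 0.000325).

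Of the ligands, Wnt5a had 5 gained regions and 1 lost, and Wnt11 had 2 gained and 4 lost. The strongest at Wnt5a lay 86.1 kb upstream, inside the neighbouring gene Erc2, with 6.80 and 9.0 with CHIR and no peak without (adjusted p = 1.87e-09). At Wnt11 a region 65.6 kb upstream had 2.99 and 2.20 with CHIR and 7.19 and 5.40 without (log2 difference −1.15 ± 0.27 SE, adjusted p = 0.00737). Ctnnb1, the gene of β-catenin, had 3 gained and 3 lost regions, among them one 23.2 kb upstream with 9.80 and 12.1 with CHIR and no peak without (adjusted p = 2.73e-05). Tcf7l1 encodes the TCF factor that acts mainly as a repressor in ESCs. The gene had 2 gained and 2 lost of 14 regions, of which the fit called 1 higher and 4 lower. A region 5.79 kb upstream of it (chr6:72794874-72795254) had 7.19 and 8.14 in CHIR cells and 14.9 and 12.7 in untreated WT cells (log2 difference −0.84 ± 0.14 SE, adjusted p = 0.000916). Both CHIR values lay below those of MUT (11.5 and 13.8) and KO cells (11.5 and 8.60) of day 3, and the region stayed open in all 16 libraries, so it was neither gained nor lost. The Tcf7l1 start site had 6.34 and 6.09 with CHIR and 5.48 and 6.18 without (log2 difference 0.10 ± 0.22 SE, adjusted p = 0.831).

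Primitive streak genes had the highest share of gained regions of the 16 lists, 27.2% of 169, with 6.51% lost. A gained region was found at 17 of the 22 genes and a lost one at 8. The fit called 44 regions higher (26.0%) and 18 lower (10.7%), against 8.15% and 11.2% over all genes. T (brachyury), the streak and mesoderm T-box factor, had 3 gained and no lost of 11 regions, of which the fit called 2 higher and 2 lower. The region 12.6 kb upstream (chr17:8421645-8421958), in an intron of the neighbouring gene T2 and with a TCF/LEF word, had 12 and 13.7 with CHIR and no peak without (adjusted p = 1.51e-07). MUT and KO cells of day 3 had weak peaks there (2.74 and 2.67 in MUT, 3.02 and 2.87 in KO), and none of the other 12 libraries was open. Downstream, 19.9 kb from the start, the values were 7.00 and 7.18 with CHIR, against 3.12 and no peak (adjusted p = 0.00627). The regions called lower, 8.51 and 4.23 kb upstream, had no peak with CHIR and 3.34 and 2.28 (adjusted p = 0.00960) and 3.84 and 3.07 (adjusted p = 0.00627) without. The T promoter, 305 bp upstream, had 6.70 and 6.72 with CHIR and 4.13 and 4.72 without, a difference that did not pass (log2 difference 0.60 ± 0.25 SE, adjusted p = 0.114).

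Msgn1, a bHLH factor of presomitic mesoderm, had 3 gained and 2 lost of 6 regions. Its promoter, 95 bp upstream of the start, had 6.28 and 7.35 with CHIR and no peak without (adjusted p = 0.000883). Farther out, 23.7 kb upstream, the values were 11.8 and 12.4 with CHIR and no peak without (adjusted p = 6.60e-05). Lhx1, a LIM homeobox factor of the streak and anterior mesendoderm, had 7 gained regions and 1 lost of 14, and 5 of the 14 were called higher. At 67.6 kb upstream (chr11:84592936-84593287) CHIR cells had 8.35 and 8.14 and untreated WT cells 4.32 and 3.17 (log2 difference 1.14 ± 0.27 SE, adjusted p = 0.00911), and KO cells on day 3 had 7.67 and 5.27. Eomes, a T-box factor of the early streak, had 4 gained regions, while a region 71.8 kb upstream (chr9:118406024-118406547) had no peak with CHIR and 9.88 and 9.27 without (adjusted p = 4.68e-09). That lost region was open in 11 of the other 12 libraries. Gsc, an organizer homeobox gene, had a region 28.6 kb upstream with 10.5 and 14.0 with CHIR and no peak without (adjusted p = 6.04e-09), which KO cells of day 3 also had open (7.92 and 6.88). Foxa2, a forkhead factor of endoderm and node, had 1 gained and 2 lost of 19 regions. Of the 22 streak promoters 21 and 20 were open with CHIR and 17 and 17 without, and those of Evx1, Msgn1 and Tbx6 were open in both CHIR libraries and in neither untreated one.

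**Figure D3:**
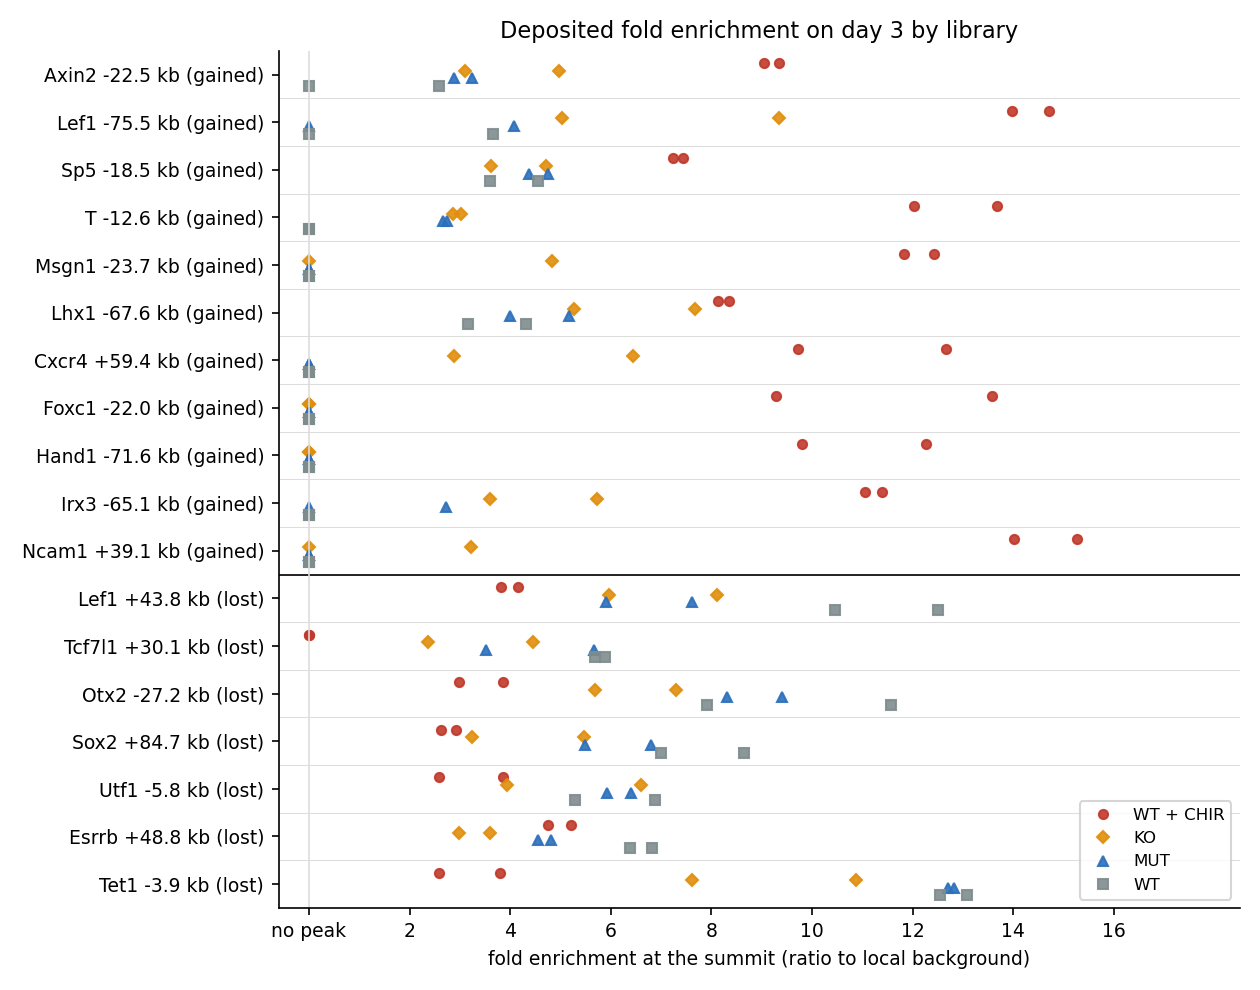
Fold enrichment (x axis, ratio to background) of selected gained and lost regions, 1 row per region with its distance from the start site, in the CHIR, KO, MUT and untreated WT libraries of day 3, with libraries lacking a peak drawn at the left. At the T region 12.6 kb upstream the CHIR points are at 12 and 13.7 and untreated WT has no peak, and at the Tet1 region 3.91 kb upstream the CHIR points are at 2.59 and 3.81 and the untreated WT points at 13.1 and 12.6.

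Mesoderm genes also had a high share, with 22.1% of 235 regions gained and 6.81% lost (20 and 9 of 30 genes). The fit called 43 regions higher (18.3%) and 16 lower (6.81%), against 8.15% and 11.2% over all genes, with a median log2 difference of 0.11. Foxc1, a forkhead factor of paraxial mesoderm, had 8 gained and 3 lost of 15 regions. Its region 22.0 kb upstream had 9.29 and 13.6 with CHIR and no peak without (adjusted p = 1.83e-09). Hand1, a bHLH factor of extraembryonic and lateral mesoderm, had 6 gained and none lost of 13, the strongest 71.6 kb upstream with 12.3 and 9.79 with CHIR and no peak without (adjusted p = 1.83e-09). Meox1 had 5 gained and none lost of 11, and at 35.3 kb downstream CHIR cells had 8.42 and 9.35 against 4.50 and 3.33 (log2 difference 1.17 ± 0.34 SE, adjusted p = 0.0285). Of the 30 mesoderm promoters 26 and 24 were open with CHIR and 22 and 23 without.

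In the definitive endoderm list 19.0% of 158 regions were gained and 6.33% lost, in 10 and 6 of 19 genes. Cxcr4, a chemokine receptor on mesendoderm cells, had 8 gained and no lost of 13 regions, and 6 were called higher. The region 59.4 kb downstream of its start (chr1:128532700-128533049) had 12.7 and 9.73 with CHIR and no peak in untreated WT or MUT cells (adjusted p = 1.88e-07), and KO cells on day 3 had 6.44 and 2.88. Posterior and neuromesodermal genes, which Wnt signalling induces later in the tail bud, had 14.5% of 145 regions gained and 4.14% lost, in 14 and 5 of 26 genes. Hoxb1, the first Hoxb gene of the hindbrain and posterior streak, had 3 gained and none lost of 8 regions, of which 1 was called: 4.77 kb downstream, 4.11 and 3.97 with CHIR against no peak (adjusted p = 7.42e-09). Cdx2 had no gained and no lost region.

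Anterior neuroectoderm genes were the developmental list with the lowest share of gained regions and the highest share of lost ones, 7.73% gained and 12% lost of 233 regions. A lost region was found at 17 of the 30 genes and a gained one at 9, and the fit called 31 regions lower (13.3%) and 13 higher (5.58%), against 11.2% and 8.15% over all genes. The list's median log2 difference was 0.05. Otx2, a homeobox factor of epiblast and forebrain, had 3 lost and no gained of 15 regions. At 27.2 kb upstream (chr14:48700855-48701321), in an intron of Otx2os1, CHIR cells had 3.85 and 2.99 and untreated WT cells 11.6 and 7.92 (log2 difference −1.38 ± 0.23 SE, adjusted p = 0.000795). A region 80.5 kb upstream had 4.79 and 3.08 with CHIR and 8.05 and 7.61 without (log2 difference −0.93 ± 0.19 SE, adjusted p = 0.00303). Both were open in all other 12 libraries. Pax6 had 2 lost and no gained of 13, and Six3 and Sox1, further forebrain and neural plate factors, had 2 lost and no gained each. Zeb2 and Ncam1 of the same list had strong gained regions. Zeb2, a repressor used in both neural tissue and mesoderm, had 7 gained regions, one in its intron with 14.7 and 13.7 with CHIR and 3.81 and 4.00 without (log2 difference 1.83 ± 0.29 SE, adjusted p = 0.000490). An intronic region of Ncam1, an adhesion molecule of neural and mesodermal cells, had 15.3 and 14.0 with CHIR and no peak without (adjusted p = 4.24e-07), while another intronic region 83.5 kb downstream had 4.87 and 5.61 with CHIR and 11.8 and 7.33 without (log2 difference −0.79 ± 0.21 SE, adjusted p = 0.0173).

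Midbrain and hindbrain genes, expressed behind the forebrain, had 17.9% of 190 regions gained and 5.79% lost. The fit called 25 of these regions higher (13.2%) and 6 lower (3.16%), against 8.15% and 11.2% over all genes. Lmx1b, a LIM homeobox factor of the midbrain, had 11 gained and 3 lost of 28 regions, of which 7 were called higher and none lower. Irx3, an Iroquois homeobox factor, had 6 gained and none lost of 9, the strongest 65.1 kb upstream with 11.0 and 11.4 with CHIR and no peak without (adjusted p = 0.00146). Fgf8, the ligand of the midbrain-hindbrain boundary and of the streak, had 4 gained regions and 1 lost of 8. One of them, 19.6 kb downstream, had 5.58 and 7.13 with CHIR and 3.02 and 2.22 without (log2 difference 1.46 ± 0.43 SE, adjusted p = 0.0302). Neural crest and surface ectoderm genes had 13.5% of 185 regions gained and 11.9% lost. Grhl3, a grainyhead factor of surface ectoderm, had 4 gained regions and 1 lost, and its relative Grhl2 had 2 gained and 3 lost. At Grhl2 a region 34.9 kb upstream had 3.74 and 4.64 with CHIR and 11.2 and 8.22 without (log2 difference −1.10 ± 0.13 SE, adjusted p = 5.01e-05).

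**Figure D4:**
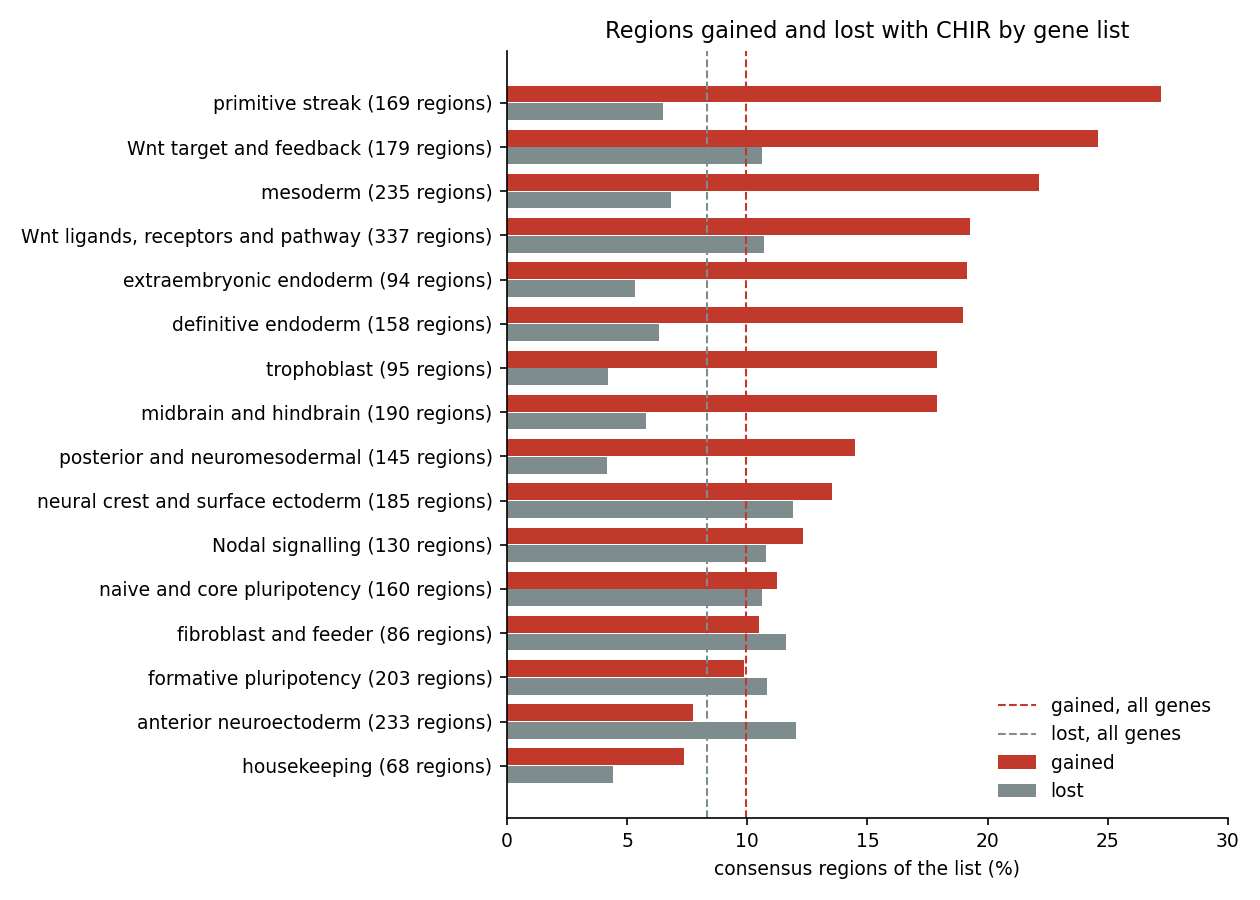
Percent of the regions of each gene list that were gained or lost with CHIR, beside all protein-coding genes. Primitive streak (27.2% gained, 6.51% lost) and anterior neuroectoderm (7.73% gained, 12% lost) lie farthest apart among the developmental lists, and all genes have 9.94% gained and 8.32% lost.

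Pluripotency genes had gained and lost shares near those of all genes. For naive and core pluripotency 11.3% of 160 regions were gained and 10.6% lost, and the fit called 38 lower (23.8%, against 11.2% over all genes) and 15 higher (9.38%, against 8.15%), with a median log2 difference of −0.10. For formative pluripotency, the state between naive and primed, 9.85% of 203 regions were gained and 10.8% lost, with 28 called lower (13.8%) and 15 higher (7.39%), near the shares of all genes. Sox2, a core factor that stays on in neural tissue, had 1 gained and 2 lost of 17 regions, and 6 were called lower and none higher. At 84.7 kb downstream (chr3:34734967-34735293) CHIR cells had 2.92 and 2.62 and untreated WT cells 8.65 and 7.00 (log2 difference −1.40 ± 0.20 SE, adjusted p = 0.000186). Its start site, 494 bp away, had 5.32 and 5.73 with CHIR and 5.23 and 5.30 without (log2 difference 0.09 ± 0.29 SE, adjusted p = 0.884). Esrrb, an orphan nuclear receptor of naive cells, had 4 lost and 1 gained of 19 regions, with 5 called lower. At 28.9 kb into Esrrb the values were 3.73 and 4.17 with CHIR and 8.50 and 5.65 without (log2 difference −0.71 ± 0.21 SE, adjusted p = 0.0288). Utf1, a chromatin-bound factor of epiblast, had 3 lost and no gained of 9, among them one 1.89 kb downstream with no peak with CHIR and 4.82 and 4.66 without (adjusted p = 2.66e-05), open in all other 12 libraries. Sall4, a zinc finger partner of the core factors, had 3 gained regions and 1 lost. That lost region, 40.7 kb upstream, had 4.29 and 4.68 with CHIR and 10.8 and 9.42 without (log2 difference −1.08 ± 0.14 SE, adjusted p = 0.000111). Pou5f1 had 5 regions, none gained or lost, and its start site had 2.02 and 2.49 with CHIR and 3.53 and 2.81 without (log2 difference −0.26 ± 0.34 SE, adjusted p = 0.683).

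The Tet1 gene, which encodes the dioxygenase that the study perturbed in other groups and which is intact in all 4 lines here, had 1 lost and no gained of 11 regions. The lost region lies 3.91 kb from the nearest start in an intron of Tet1 (chr10:62902842-62903203). It had 2.59 and 3.81 in CHIR cells and 13.1 and 12.6 in untreated WT cells (log2 difference −1.85 ± 0.16 SE, adjusted p = 2.37e-06). Both CHIR values lay below those of all MUT (12.7 and 12.8) and KO libraries (10.9 and 7.62) of day 3, and all other 12 libraries were open. About 1 kb away, a region with a TCF/LEF word (chr10:62901819-62902191) was higher with CHIR, at 4.86 and 8.26 against 3.99 and 2.37 (log2 difference 1.11 ± 0.34 SE, adjusted p = 0.0328), and was neither gained nor lost by the definition. The Tet1 start sites did not pass: 225 bp from the start the values were 8.63 and 10.1 with CHIR and 10.7 and 8.88 without (log2 difference −0.07 ± 0.16 SE, adjusted p = 0.821).

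Lists of other cell types and pathways served as comparison. Extraembryonic endoderm genes had 19.1% of 94 regions gained and 5.32% lost, trophoblast genes 17.9% and 4.21% of 95, and fibroblast genes 10.5% and 11.6% of 86. All protein-coding genes had 9.94% gained and 8.32% lost. Some members of the first lists are also mesoderm or streak genes (Eomes and Hand1 are in the trophoblast list, Gata4 and Pdgfra in the extraembryonic endoderm list). Shares without these members are not given, so their part in the values was not tested. Col4a1, a basement membrane collagen of the extraembryonic endoderm list, had 5 gained and 2 lost of 15 regions, and its region in an intron of Col4a2 21.7 kb upstream had 6.68 and 7.46 with CHIR and no peak without (adjusted p = 6.44e-06). Genes of Nodal signalling had 12.3% of 130 regions gained and 10.8% lost, and Nodal itself had neither. At Smad3, a Nodal transducer, a region 35.9 kb upstream had 5.29 and 5.56 with CHIR and 9.54 and 8.61 without (log2 difference −0.70 ± 0.11 SE, adjusted p = 0.000560). Housekeeping genes had 7.35% of 68 regions gained and 4.41% lost, and all 16 of their promoters were open in all 4 libraries.

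Over all protein-coding genes, list members included, 564 had at least 3 gained regions and 276 at least 3 lost ones, and 1682 had both. Tenm4, a teneurin membrane protein, had the most gained regions (15 of 38) and also 7 lost. One Tenm4 region 63.2 kb from its nearest start had 8.50 and 10.4 with CHIR and no peak without (adjusted p = 1.33e-09), and another, 2.18 kb upstream, had 2.61 and 4.08 with CHIR and 10.6 and 9.92 without (log2 difference −1.48 ± 0.14 SE, adjusted p = 7.09e-06). Lmx1b and Gse1 had 11 each, and Lingo1 and Rnf220 had 10. Dlc1 had 8 gained and no lost of 14 regions, and 7 were called higher. In its intron, 59.0 kb upstream, CHIR cells had 11.9 and 12.7 and untreated WT cells 3.12 and 2.33 (log2 difference 2.30 ± 0.48 SE, adjusted p = 0.00358). Magi1, a scaffold protein of cell junctions, had the most lost regions (9 of 26), and Zfp281, a factor of the exit from naive pluripotency, had 6. Nfib, a nuclear factor I gene, had 5 lost and none gained, among them an intronic region with no peak with CHIR and 7.56 and 5.60 without (adjusted p = 7.97e-07). Most genes at the 10 regions of largest test statistic in each direction belong to none of the lists. Ranking by this statistic favours regions with many libraries set to 1, since these show little spread. The gained ones lay near Spdl1, Nek10, Robo2, Polr2m, Tln2, Selp, Pde8b, Rtl4, Tmem30b and Hibadh. The one near Spdl1 had 14.5 and 16.9 with CHIR and no peak without. The lost ones lay near Lamp5, Ptprc, Stim2, Ctnnd2, Ngdn, Gbe1, Stmn2, Dync1i2, Cntnap5a and Adgrl4. The one near Lamp5 had no peak with CHIR and 14.5 and 14.3 without.

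Gained and lost regions lay away from promoters. Within 3 kb of a start site lay 21.2% of gained and 24.8% of lost regions, against 40.9% of all consensus regions. Introns held 39.9% of gained, 35.6% of lost and 27.4% of all regions, and intergenic sequence 36.4%, 36.7% and 28.8%. The median distance to a start site was 11152 bp for gained, 10040 bp for lost and 5460 bp for all regions, and the median GC content was 53.2%, 52.7% and 55.2%. Put the other way, 5.69% of promoter-proximal regions were gained and 5.47% lost, against 16% and 11.7% of intronic regions.

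Words bound by known factor families were then counted in the 50000 strongest intervals of each library (201 bp windows, both strands). CTTTGATG or CTTTGATC, the TCF/LEF words, stood in 3.52% and 3.43% of CHIR intervals, against 1.21% and 1.27% in untreated WT cells and 1.13% to 1.79% over all 14 other libraries. Both CHIR libraries lay above every other library, with a mean 2.68 times theirs. The T-box word GGTGTGA stood in 5.30% and 5.23% with CHIR, against 2.98% and 3.13% in untreated WT cells and 2.98% to 4.16% in the 14 others. For the GATA word AGATAAG the shares were 2.38% and 2.32%, against 1.49% to 2.04%, and for the E-box CAGCTG 19.7% and 20.04%, against 16.8% to 18.1%. CDX (CCATAAA) and TFAP2 (GCCNNNGGC) words were higher by smaller margins, 1.06% and 1.05% against 0.804% to 1.03%, and 14.1% and 14.2% against 13.3% to 13.9%. Lower with CHIR were the SOX word ACAATGG, at 2.01% and 2.03% against 2.36% to 3.19%, and the octamer ATGCAAAT bound by POU factors, at 1.58% and 1.57% against 2.00% to 2.51%. Paired-like homeobox words (TAATCCC or TAATCCT, the kind OTX2 binds) stood in 3.25% and 3.18%, against 3.81% to 4.43%. GRHL (AACCGGTT), ESRRB (CAAGGTCA), NFY (CCAATCA) and CTCF (AGGGGGCG) words were lower too.

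These 13 differences, 6 higher and 7 lower, had a two-sided exact permutation p of 0.00833 each, the smallest that 2 against 14 libraries can give (adjusted p = 0.0128 over 20 families). The libraries share lines and days, and WT7 and WT34 occur only with CHIR. The p therefore measures the spread over these libraries only and cannot separate line from treatment. Forkhead (TGTTTAC), TEAD (GGAATGT), ZIC (CCTGCTGNG), LIM (CTAATTA), SMAD (GTCTAGAC), KLF (CCACNCCC) and AP-1 (TGANTCA) words did not pass, with adjusted p from 0.0714 to 1. TEAD words still stood in 3.21% and 3.09% with CHIR, against 4.75% and 4.73% in untreated WT cells and 3.14% to 5.16% over all 14 others. AP-1 words stood in 6.71% and 7.63%, against 8.49% and 10.5% in untreated WT cells. ZIC, LIM and KLF words were slightly higher with CHIR than in untreated WT cells. The contrast with untreated WT cells alone was not tested. Of the 13, ESRRB missed the threshold with windows of 50 bp on either side (adjusted p = 0.256), with distal intervals alone (0.0513) and with 30000 intervals (0.354), TFAP2 with the shorter windows (0.0897) and CTCF with 30000 intervals (0.412), where LIM words passed (0.0152). KO cells on day 3 are among the 14. Against the other 8 day 3 libraries alone, the same 13 families each had an exact permutation p of 0.0222 (adjusted p = 0.0342). The GC content of the windows was 58.1% and 58.2% with CHIR and 57.5% to 58.5% in the others.

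**Figure D5:**
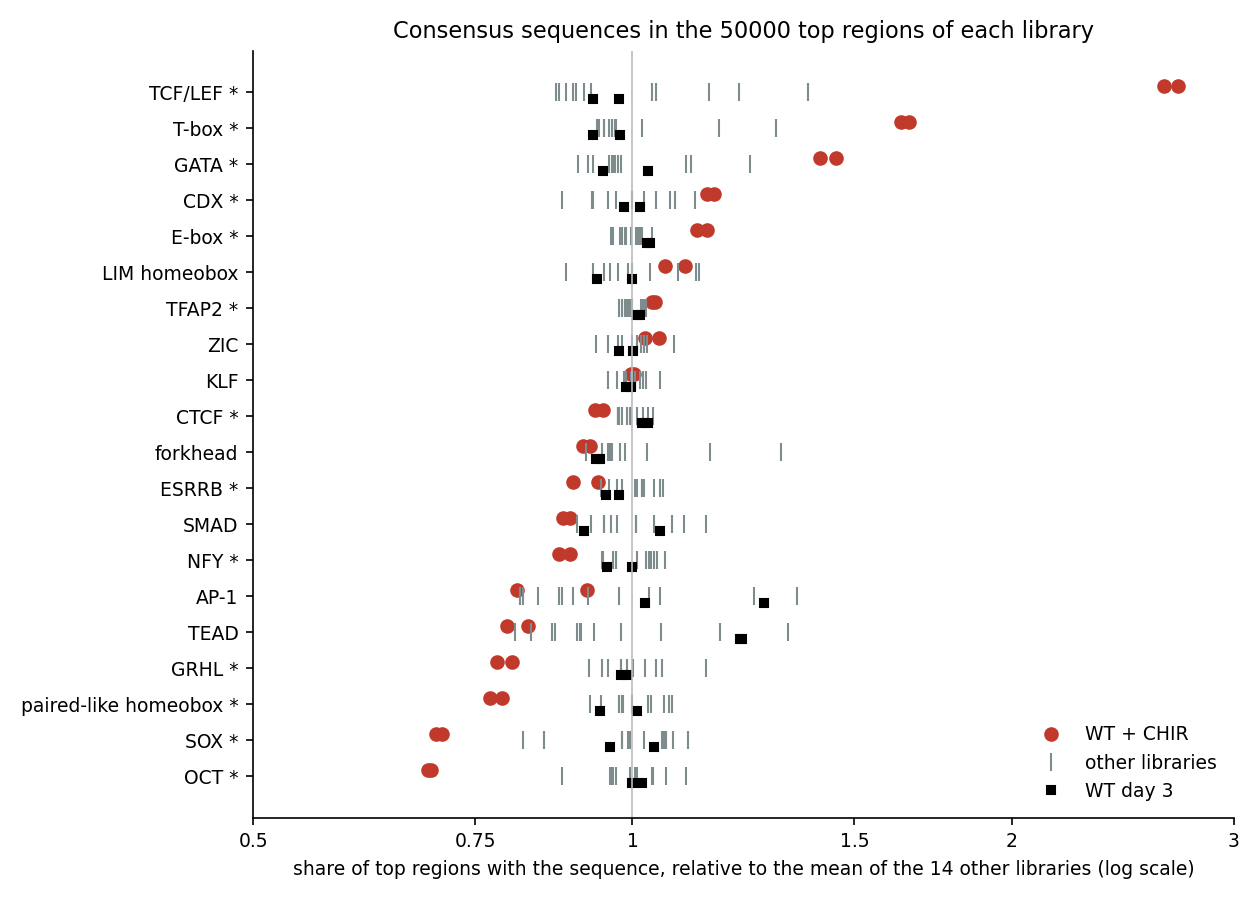
Share of each library's 50000 strongest intervals that hold a word of each factor family, relative to the mean of the 14 libraries without CHIR (log axis), with CHIR libraries above the rest in the legend and asterisks for an adjusted p under 0.05. CHIR libraries hold TCF/LEF words in 3.52% and 3.43% of intervals, 2.68 times the mean of the others, and lie below all others for SOX and octamer words.

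Taken by region, TCF/LEF words concentrated in the gained set. They stood in 870 gained regions (9.83%), 67 lost regions (0.922%) and 1891 of all consensus regions (2.35%). Of regions with no such word 10.1% were gained, of those with 1 word 45.4%, and of the 59 with 2 or more 64.4%. Regions with 1 word had a median log2 difference of 0.68 and were lost in 3.66% of cases. The word lay a median of 35.5 bp from the summit in gained regions and 41.5 bp in all regions that hold it. It stood in 8.0% of promoter-proximal gained regions, against 1.39% of all promoter-proximal regions. In the other gained regions the share was 10.3%, against 3.01% of all regions over 3 kb from a start site. Gained regions that day 3 KO cells also had open in both libraries held it in 7.66% of cases, and those open in neither in 10.6%. T-box words stood in 11.9% of gained, 3.12% of lost and 4.31% of all regions, and GATA words in 4.97%, 1.83% and 2.13%. Lost regions more often held TEAD words (9.93%, against 3.54% of gained and 4.27% of all), AP-1 words (14.5%, 7.24% and 9.30%), SOX words (5.78%, 2.26% and 3.00%) and octamers (4.44%, 1.36% and 2.19%). These shares are descriptions of sets that the CHIR and untreated WT libraries defined, and a word is not evidence that a factor was bound.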

How the data were processed

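The authors ran the ENCODE pipeline against mm10 on omni-ATAC reads of 16 libraries. For each library they deposited a peak list with the fold enrichment, which is a ratio over local background, and with −log10 p and −log10 q values, down to a −log10 p of 2. Depth is unknown from these files. The submitters' processing notes name DiffBind 3.0.15, HOMER 2 and deepTools 3.4.3, and no source used here states which aligner or peak caller version was run. The authors' regions that differ between KO and WT cells are coordinates only.

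Peaks of equal start and end were joined and the 50000 intervals of highest −log10 p kept per library. Summit windows (150 bp on either side) from different libraries were merged, and 80565 consensus regions seen in 2 or more libraries remained (median width 343 bp). A kept interval that overlapped a region by 1 bp made it open. The fold enrichment of a region's best peak, or 1 where no peak was listed, was log2 transformed, quantile normalized and fitted with limma 3.58.1 (R 4.3.3, 8 group means, trend, Benjamini-Hochberg adjustment over all regions). The fit was run on simulated data with a normal spread around each region's mean. No simulated library was set to a shared value of 1, so that run does not test the small spread of such regions. Genes are the protein-coding gene whose start site (GENCODE M21) lay closest, up to 100 kb away, alternative starts included. Shares per library were compared with two-sided exact permutation tests.

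Groups came from the labels. The members, the 16 gene lists (313 genes), the words and the tests were chosen with earlier results of these data known. Named genes were, of each list, up to 3 with the most gained and 3 with the most lost regions, the 10 genes of all with the most, the 10 regions of largest limma statistic, and Axin2, Lef1, Sp5, T, Tcf7l1, Tet1, Pou5f1, Sox2 and Otx2. Others, and the choice among their regions, came after the values were seen. One gene that this rule named is not reported here.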

Additional observations from a re-analysis of the deposited data

How the results depend on the processing

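Depth is unknown, so a missing peak cannot be told apart from a shallow library. The counts of gained and lost regions followed the number of intervals kept: 4938 gained and 4191 lost at 30000 intervals per library, 13327 and 10966 at 75000, and 19877 and 14231 with every interval at a −log10 q of at least 2. Where closed meant no listed peak of any rank, 4073 were gained and 910 lost. With every interval at that −log10 q, the lead of KO cells in occupancy of gained regions was 9.46 percentage points (exact permutation adjusted p = 0.121). The fit called 1089 regions higher and 3411 lower among regions listed in all 4 libraries, 6292 and 5838 with the 4 libraries alone, and 1271 and 4024 among regions listed in all 16, a choice made after seeing the data. A replicate block of cell line gave 7378 higher and 10375 lower and changed no call of the 166 named regions that were called. No line occurs on both sides of the contrast, so this block cannot separate line from treatment. Median centring gave 7731 and 11717, and no normalization 6269 and 9223. With MUT cells of day 3 in place of untreated WT cells, 8702 regions were gained and 7359 lost, of which 7703 and 4671 were among those of the main comparison, and the Foxa2 region 77.1 kb away turned to a log2 difference of 0.0775. Of the 166, 37 were no longer called with only the 4 libraries. Leaving out 1 library at a time gave 10078 to 10469 gained and 9316 to 11400 lost regions (11400 without untreated WT replicate 2), 5670 to 6782 higher and 7064 to 9580 lower. The differences in occupancy then ran from 11.6 to 19.0 points for KO cells at gained regions, from −18.3 to −17.1 at lost regions, from 58.4 to 61.9 for CHIR cells at regions open in KO and stayed at −37.4 at regions closed in KO. With 1 CHIR library, 0 words were higher and 0 lower at the adjusted threshold, which that design cannot pass (smallest exact permutation p 0.0667).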
